A study of Mus musculus with 14 samples.

Results

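Transcripts of the cardiac conduction system and of the Iroquois family were followed across the dorsal and ventral surfaces of the fetal mouse heart. The set was fixed by name and holds 8 genes, of which 5 are rows of the table of 15894 genes: Hcn4, Tbx3, Gja1, Gjc1 and Irx4. Cacna2d2, Irx3 and Irx5 are not rows of it and were not analysed here. RNA came from the epicardial and subepicardial layer dissected from hearts at E16.5, each library being a pool of 2 hearts. The groups were female ventral (replicates 1 to 3), female dorsal (1 to 3), male ventral (4 to 7) and male dorsal (4 to 6), so that sex and the numbering of the pools cannot be told apart. A further male library, numbered 7, is dorsal in its title and source name but ventral in its tissue field, and entered no group. All hearts carry the genotype label Tbx18Cre, a Cre recombinase driven by Tbx18, a gene of the epicardium, and the study calls the hearts it compared wild type. The layer was dissected and not sorted, so fewer cells of a type and less RNA per cell cannot be told apart. The methods name several litters but do not tie each pool to a litter, so each p-value measures only the spread between libraries. Ventral and dorsal libraries of the same number entered the main fits as independent.

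The heartbeat starts in specialised cardiomyocytes that depolarise by themselves, spreads through gap junctions and reaches the ventricles through a fast branching network. Tbx3 is a transcriptional repressor that keeps nodal and atrioventricular conduction tissue apart from working muscle, and Hcn4 forms the channel that carries the pacemaker current. Connexins build the gap junction channels: Gja1 encodes connexin43, the main connexin of working ventricular muscle and also of epicardial, fibroblast and smooth muscle cells, and Gjc1 encodes connexin45, the low-conductance connexin of the early heart and the nodes. Iroquois homeobox genes pattern the chambers and the spread of repolarisation, and Irx4 marks ventricular muscle.

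All 5 listed genes are protein-coding, and their positions follow GENCODE M21 on GRCm38. Hcn4 (ENSMUSG00000032338) lies on the plus strand of chromosome 9 from 58823412 to 58863175, and Tbx3 (ENSMUSG00000018604) on the plus strand of chromosome 5 from 119670669 to 119684724. Gja1 (ENSMUSG00000050953) lies on the plus strand of chromosome 10 from 56377330 to 56402513. Gjc1 (ENSMUSG00000034520) lies on the minus strand of chromosome 11 from 102799579 to 102819700, and Irx4 (ENSMUSG00000021604) on the plus strand of chromosome 13 from 73260479 to 73269608. Of windows of 60 bases, the read length, 0.855% of those in Tbx3 transcripts also occur in Tbx3os1, an antisense gene that shares 115 exon bases with it. No source says that counting used the strand, so reads there cannot be told apart, and the other 4 genes share no such window with any transcript of another gene.

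RefSeq start regions (GRCm38.p6, 250 bases before the start to 50 after it, gene strand) were found for 3 members and are shown because the tested lists hold the T-box, GATA and Nkx2-5 factors whose short motifs can be looked for in them. The T-box motif searched for on both strands was AGGTGT. That of the GATA factors was AGATAA, also on both strands. The shorter motif of Nkx factors was AAGTG, again on both strands and free to overlap the others. A TATA box was looked for on the gene strand alone as TATAAA. Matches are in capitals.
Hcn4, plus strand, chr9:58822699-58822998: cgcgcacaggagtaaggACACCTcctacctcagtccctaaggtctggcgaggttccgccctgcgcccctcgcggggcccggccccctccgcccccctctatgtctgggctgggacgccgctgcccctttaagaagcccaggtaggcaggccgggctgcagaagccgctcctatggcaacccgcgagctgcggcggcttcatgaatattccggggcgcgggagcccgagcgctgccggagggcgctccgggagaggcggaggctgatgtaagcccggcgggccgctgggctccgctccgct
Gja1, plus strand, chr10:56377050-56377349: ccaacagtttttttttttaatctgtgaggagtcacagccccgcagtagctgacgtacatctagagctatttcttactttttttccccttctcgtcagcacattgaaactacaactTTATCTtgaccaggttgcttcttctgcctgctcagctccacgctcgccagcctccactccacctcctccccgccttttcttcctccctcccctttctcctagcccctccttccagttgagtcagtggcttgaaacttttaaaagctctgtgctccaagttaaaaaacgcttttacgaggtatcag
Irx4, plus strand, chr13:73260247-73260546: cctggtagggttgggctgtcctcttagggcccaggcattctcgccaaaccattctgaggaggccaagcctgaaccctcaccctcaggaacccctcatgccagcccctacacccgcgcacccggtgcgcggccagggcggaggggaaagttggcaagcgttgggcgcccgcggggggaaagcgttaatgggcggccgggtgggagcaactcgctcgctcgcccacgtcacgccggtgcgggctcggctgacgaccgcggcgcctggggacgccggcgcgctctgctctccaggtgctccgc
The Hcn4 window holds 1 T-box match, read as its reverse complement, a motif found in 13.7% of 32851 promoter windows of this length. The Gja1 window holds 1 GATA match, also on the opposite strand, found in 11.2% of them. The Irx4 window holds none of these motifs, and neither the Nkx motif (46.4% of windows) nor the TATA box (8.32%) occurs in any of the 3. Base composition separates the windows, with 31 CpG sites and 71.7% GC for Hcn4, 31 sites and 70.7% GC for Irx4, and 8 sites and 47.7% GC for Gja1. The Hcn4 window ends before the GENCODE start of the gene.

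Reads on listed genes ranged from 13918995 to 25221314 per library. A gene with 3 reads stands at a normalised CPM (read count scaled to library size, as deposited) of 0.135 to 0.253, depending on the library. Ventricular muscle RNA was present throughout the dissected layer: all 10 ventricular cardiomyocyte markers were listed and their summed level lay between 17120 and 44300 in every library. All 9 epicardial markers were listed too, with a sum between 243.6 and 5818. No library had fewer than 41 reads for any of these 9, the lowest being Bnc1 in female dorsal replicate 1. Blood endothelial markers were low in male ventral replicate 7, with a sum of 55.81 against 280.6 to 603 in the other 13 libraries. Female dorsal replicate 1 stood apart in atrial markers, with a sum of 12460 against 473.6 to 1992 in the other 13, and results that rest on it are given with and without it.

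Levels of the members spanned several orders of magnitude when divided by merged exon length. Gja1 stood highest, with a median level of 93.8 normalised CPM per kb over the 14 libraries (range 39.8 to 144). Gjc1 followed at 6.12 per kb (2.60 to 10.5) and Irx4 at 6.10 per kb (4.23 to 13.1), with overlapping ranges. Tbx3 was lower at 0.609 per kb (0.215 to 2.92), and Hcn4 was the lowest at 0.0889 per kb (0.0133 to 2.04). Among neighbours in this order, the ranges of Gja1 and Gjc1 did not meet, nor did those of Irx4 and Tbx3, whereas those of Gjc1 and Irx4 and of Tbx3 and Hcn4 overlapped. On the length of the longest coding transcript, which leaves out most of the annotated exon bases of Gja1 and Gjc1, the medians became 302 per kb for Gja1 and 13.2 per kb for Gjc1, against 6.14 per kb for Irx4.

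**Figure D1:**
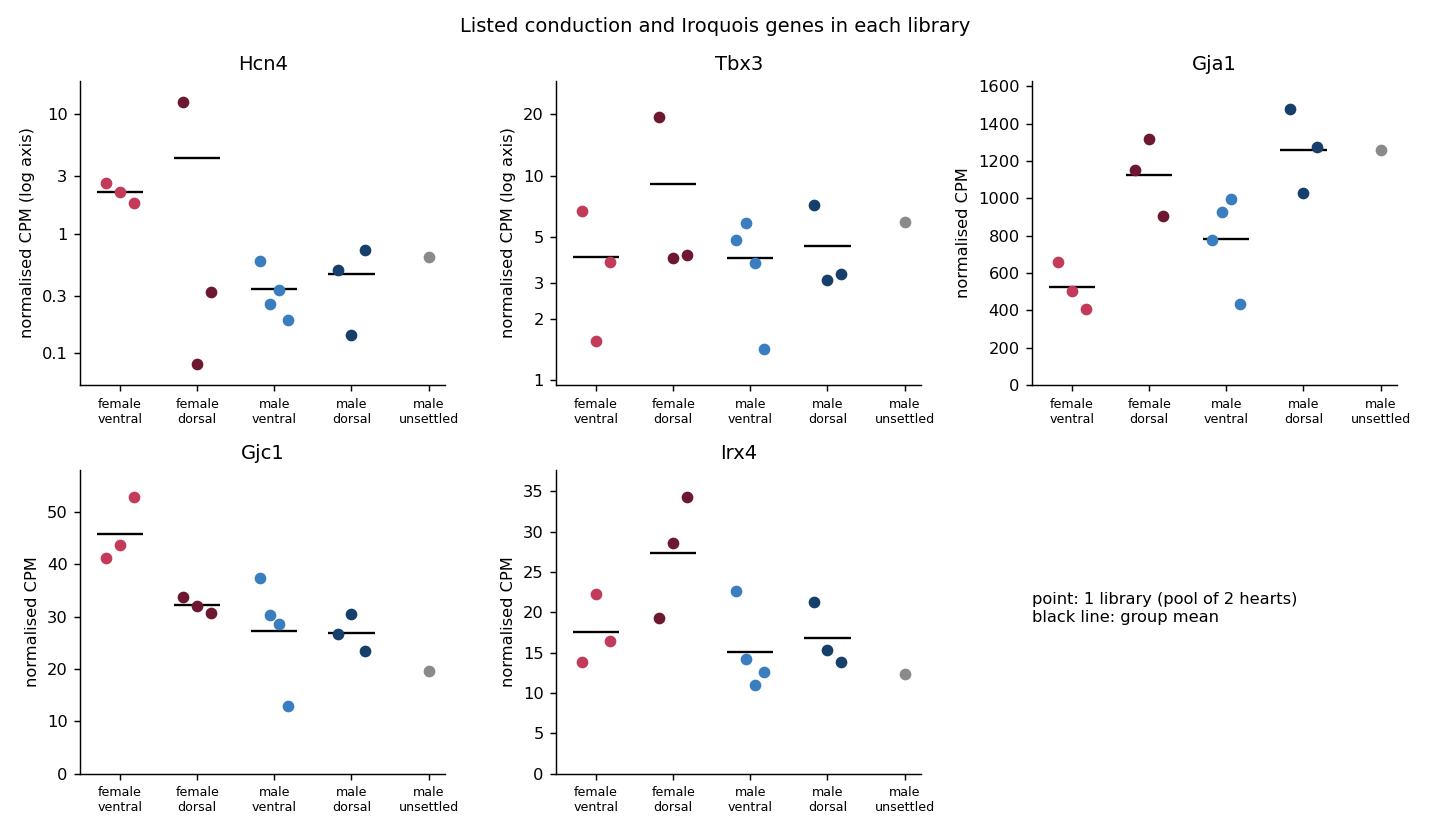
Normalised CPM (vertical axes, logarithmic for Hcn4 and Tbx3, linear from 0 otherwise) of the 5 listed genes, with 1 point per library and a line at the group mean. Gja1 was higher in every dorsal than in every ventral library within each sex, Gjc1 was higher in every female ventral than in every female dorsal library, and 1 female dorsal library stands far above the others for Hcn4 (12.5) and Tbx3 (19.4).

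The first question was whether dorsal and ventral surfaces differ in these genes. In females Gja1 was lower and Gjc1 higher ventrally, so 2 of the 5 members were called, 1 in each direction, by limma at an adjusted p under 0.05. Across all 14411 genes of that fit 14.5% were called higher ventrally and 13.3% higher dorsally, so that a call alone was common. In males none of the 4 members tested was called, and 0% of 14917 genes were, although 2083 had an unadjusted p under 0.05 with limma, and edgeR called 0 as well. With both sexes in 1 fit and sex as a term, Gja1 was the single member called, where 9.80% of 15772 genes were higher ventrally and 9.06% higher dorsally. That split of 1545 higher to 1429 lower genes became 1837 to 1054 with median-of-ratios scaling and 1045 to 1795 after correction for GC content and gene length. The median log2 change of the members tested was -0.60 in females, -0.17 in males and -0.37 in both, against 0.01, 0.03 and 0.03 over all genes tested.

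**Figure D2:**
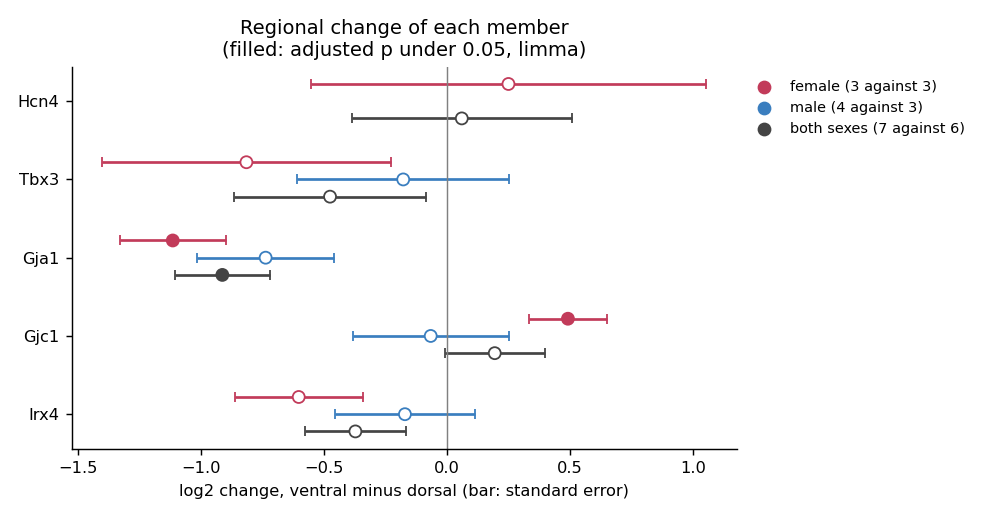
Log2 change of each listed gene, ventral minus dorsal, on the log2(normalised CPM + 1) scale (horizontal axis; bars are standard errors, filled points have an adjusted p under 0.05 in limma). Gja1 lies left of 0 in all 3 fits, Gjc1 is filled in females alone, and Hcn4 has the widest bar and no male point because it was below the filter there.

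Gja1, the connexin43 gene, was lower ventrally in the fits of the females and of both sexes. It read 657, 505 and 408 normalised CPM in the 3 female ventral libraries and 1152, 1317 and 908 in the 3 dorsal ones. In males it read 777, 925, 999 and 437 ventrally and 1481, 1028 and 1275 dorsally, and the library of unsettled region read 1257. Dorsal and ventral values did not overlap in either sex. Such separation, all dorsal above all ventral, was seen for 21.6% of genes tested in females and for 7.82% in males. The log2 change was -1.11 in females (SE 0.22, adjusted p = 0.00553) and -0.91 in both sexes (SE 0.19, adjusted p = 0.00941). In males it was -0.74 (SE 0.28), with an unadjusted p of 0.0245 in limma and an adjusted p of 0.309. The male change was 0.38 above the female one (adjusted p = 0.691). Gja1 was called in all 15 alternatives of the female fit and all 24 of the fit on both sexes, each single library left out among them.

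Summed markers of ventricular muscle and of smooth muscle and pericytes had higher medians dorsally in both sexes, as Gja1 did. Those of the epicardium and of fibroblasts had higher medians ventrally in both sexes. Summed ventricular cardiomyocyte markers (10 of 10 listed, none at 0) were 22190 to 31810 in female ventral and 28880 to 43350 in female dorsal libraries, which overlap. In males they were 17120 to 32830 ventrally and 34390 to 44300 dorsally, without overlap. Of these 10 genes, Ttn and Ryr2, a sarcomeric spring and the calcium release channel, were called higher ventrally in females, and none was called higher dorsally there. Actc1, cardiac actin, was called higher dorsally in the fit on both sexes. Summed smooth muscle and pericyte markers (6 of 6 listed, with Myh11 at 0 reads in the lowest library) were 745.4 to 1151 ventrally and 1269 to 1575 dorsally in females, and 459.8 to 1463 and 1136 to 1596 in males. The part of these cells in the Gja1 result was not tested.

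Gjc1, the connexin45 gene, went the other way in females and showed no regional order in males. The female ventral libraries read 41.1, 43.7 and 52.8, all above the dorsal values of 33.7, 32.04 and 30.7. Ventral values above all dorsal ones were found for 23.2% of genes in that fit. Male ventral libraries read 37.3, 30.3, 28.5 and 12.99, a range that enclosed the dorsal values of 26.8, 30.5 and 23.4, and the unsettled library read 19.5. The female log2 change was 0.49 (SE 0.16, adjusted p = 0.0456). The change stayed between 0.39 and 0.57 over 15 alternatives, but the call did not hold in all of them. A fit blocked on the pool number gave an adjusted p of 0.0631, and leaving out female ventral replicate 2 or 3 or female dorsal replicate 1, 2 or 3 took it to 0.0942, 0.134, 0.0686, 0.112 and 0.115. In males the change was -0.07 (SE 0.32, adjusted p = 0.941). The lowest male value came from ventral replicate 7, in which endothelial markers were low, and without it the male change was 0.24. The difference between the sexes in regional change was -0.56 (adjusted p = 0.532).

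Epicardial and fibroblast markers were higher ventrally in the same female libraries. Epicardial markers (9 of 9 listed, none at 0) summed to 1663 to 2696 ventrally and 243.6 to 594.4 dorsally, and all 9 were called higher. Fibroblast markers (7 of 7 listed, none at 0) summed to 8610 to 15920 ventrally and 2457 to 3844 dorsally, with Col1a1, Col3a1, Pdgfra and Dcn called higher. Of the other cell types, 4 of 5 macrophage markers were called higher ventrally and Alas2, of 3 erythroid markers, lower, whereas no blood endothelial marker of 6 and no Schwann cell and neuron marker (1 tested) was called. Of the smooth muscle and pericyte markers, Pdgfrb was called higher and Myh11, Cnn1 and Rgs5 lower ventrally. The part of these cells in the Gjc1 result was not tested.

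Gja1 was lower and Gjc1 higher in every female ventral library than in every female dorsal one. The ratio of the connexin43 to the connexin45 transcript therefore had to separate the female surfaces, and it is given as a description only. On per-kb levels it was 7.80, 5.64 and 3.77 in female ventral libraries and 16.7, 20.04 and 14.4 in female dorsal ones. Male ventral libraries gave 10.2, 14.9, 17.1 and 16.4 and male dorsal ones 27.0, 16.4 and 26.5, which overlap. The highest ratio, 31.4, belonged to the library of unsettled region. The absolute ratio depends on the exon length chosen for each gene, whereas the order of the libraries does not.

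**Figure D3:**
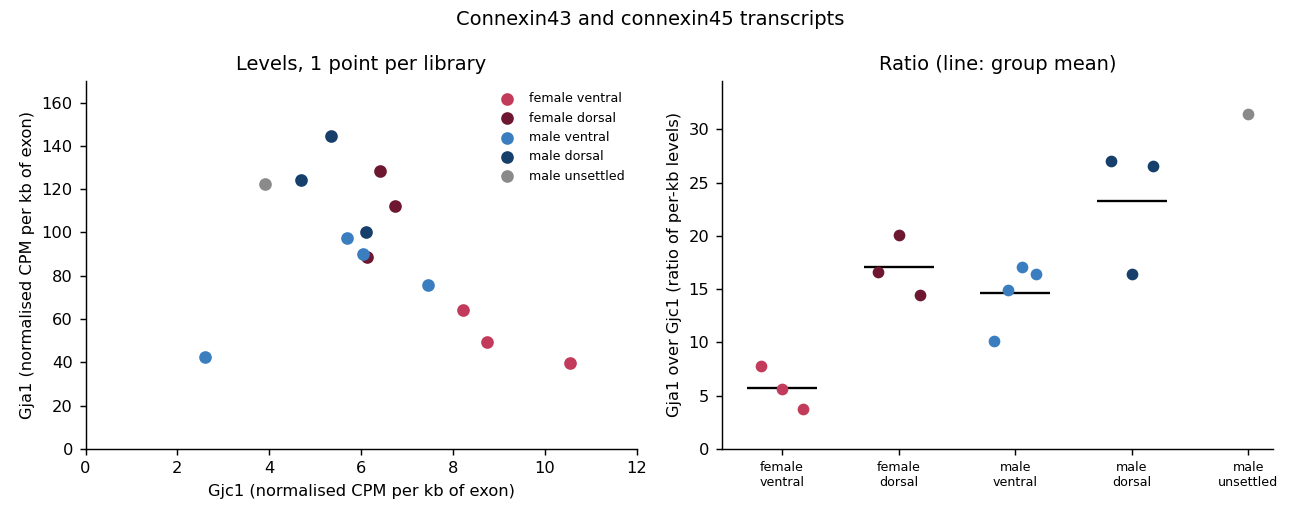
Left, Gja1 against Gjc1 in normalised CPM per kb of merged exon, 1 point per library. Right, the ratio of these levels by group, with a line at the group mean. Female ventral libraries (3.77 to 7.80) lie below all others, and the lone library of unsettled region (31.4) above them.

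Of other connexin genes, 6 of 13 searched were listed, and 2 of them, Gja3 and Gja5, were also called higher dorsally in females. Gja5 (connexin40, of atrial muscle, the fast ventricular conduction network and arterial endothelium) read 11.97, 7.41 and 6.36 in female ventral libraries and 98.1, 25.4 and 91.6 in dorsal ones. Its log2 change was -2.75 (SE 0.46, adjusted p = 0.00305), and -2.41 (adjusted p = 0.0107) without female dorsal replicate 1. In the fit on both sexes the change of -1.88 (adjusted p = 0.0358) was not called without that library (-1.66, adjusted p = 0.0778). Gja3 (connexin46) changed by -1.11 in females (adjusted p = 0.0218; 0.0659 without that library). No connexin was called in males.

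Irx4, the ventricular Iroquois gene, was not called on either surface in females, males or both. It read 13.9, 22.2 and 16.5 ventrally and 19.3, 28.6 and 34.3 dorsally, and the groups overlapped through dorsal replicate 1, although each ventral library lay below the dorsal one of the same number. The log2 change was -0.60 (SE 0.26, adjusted p = 0.111). It was called without that library (-0.83, adjusted p = 0.0469) and after correction for GC content and gene length (-0.74, adjusted p = 0.0479), the GC content of Irx4 exons being 60.9%. Blocking on the pool number gave an adjusted p of 0.0648, and with that correction added the change was called (-0.74, adjusted p = 0.0253). In males Irx4 read 22.6, 14.2, 11.03 and 12.6 ventrally and 21.2, 15.4 and 13.8 dorsally, with a change of -0.17 (SE 0.28, adjusted p = 0.806), and 12.3 in the unsettled library. The female dorsal values of 28.6 and 34.3 were the highest of all libraries. Irx1, Irx2 and Irx6, searched for beside the members, are not rows of the table and were not analysed here.

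Tbx3 had similar values on both surfaces apart from a single high library. The female ventral libraries read 6.76, 1.55 and 3.78 and the dorsal ones 19.4, 3.95 and 4.12. The male ventral libraries read 4.83, 5.87, 3.73 and 1.42, the dorsal ones 7.17, 3.10 and 3.30, and the unsettled one 5.93. The log2 change was -0.81 in females (SE 0.59, adjusted p = 0.327) and -0.18 in males (SE 0.43, adjusted p = 0.876). Without female dorsal replicate 1 the female change was -0.14 (adjusted p = 0.854). Blocking on the pool number together with the correction for GC content and gene length, the female change was -1.08 and was called (adjusted p = 0.0410).

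Hcn4, the pacemaker channel gene, depended on 1 library in both its level and its direction. The female ventral libraries read 2.63, 2.21 and 1.79 (50, 30 and 30 reads). The dorsal libraries read 12.5, 0.0817 and 0.324 (270, 1 and 6 reads), so that the ventral values lay between the highest dorsal one and the other dorsal ones. Male ventral libraries read 0.588, 0.261, 0.339 and 0.191 (11, 6, 8 and 4 reads), male dorsal ones 0.5, 0.144 and 0.735 (7, 3 and 15 reads) and the unsettled one 0.637 (16 reads). No male library reached a normalised CPM of 1, and Hcn4 did not pass the filter for the male fit. The female log2 change of 0.25 (SE 0.80, adjusted p = 0.843) became 1.42 (SE 0.37, adjusted p = 0.0269) without female dorsal replicate 1. In that fit 3 members were called (Hcn4 higher, Gja1 and Irx4 lower ventrally), where 11.8% of 14114 genes were higher ventrally and 11.1% higher dorsally. The size of this change depends on the pseudocount, since 1 of the remaining dorsal libraries held a single read.

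**Figure D4:**
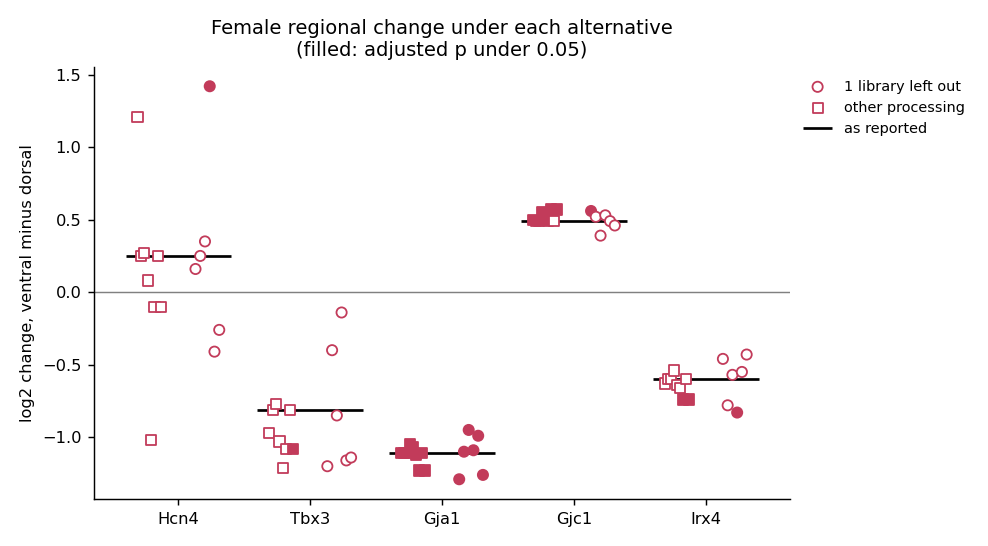
Log2 change of each listed gene between female ventral and dorsal libraries under every alternative (circles, 1 library left out; squares, other processing; filled, adjusted p under 0.05; black line, as reported). All Gja1 points are filled and lie between -1.29 and -0.95, whereas Hcn4 runs from -1.02 to 1.42 with 1 filled point, the fit without female dorsal replicate 1.

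The library that set the Hcn4 and Tbx3 values, female dorsal replicate 1, was also the highest for many other genes of pacemaker tissue. Its Hcn4 was 4.74 times the highest of the other 13 libraries and 25.0 times their median, and its Tbx3 was 2.70 and 4.91 times. The other members did not follow: its Gja1 (1152), Gjc1 (33.7) and Irx4 (19.3) lay within the range of the other libraries. Across 14573 genes with a mean of at least 1, 7.23% were highest in this library and 0.528% exceeded every other library at least 2-fold.

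Of the conduction transcription factors, 5 of 9 listed were highest there and 2 exceeded all others 2-fold. These were Shox2, a regulator of the sinus node (121 against at most 20.7), and Tbx5, a regulator of conduction and chamber genes (119 against at most 24.6). Of 5 listed node and Purkinje markers 4 were highest there, and the other, Smoc2, was low at 64.5 against a median of 218.2 in the other libraries. Vsnl1, a calcium sensor enriched in the sinus node, read 92.2 against at most 6.54, Cpne5, a copine of conduction tissue, read 46.7 against at most 2.91, and Rgs6, a brake on vagal signalling, read 34.2 against at most 6.72. Of 11 listed ion channel genes 5 were highest there, whereas Kcne1, a potassium channel accessory subunit, was lower than in all others (82.7 against at least 117.2). Kcnj3 and Kcnj5, the subunits of the acetylcholine-activated potassium channel, read 25.1 against at most 6.37 and 118 against at most 59.0. Gjd3 (connexin30.2, a slow-conducting connexin) read 7.27 against at most 1.25. Of 7 repolarising potassium channel subunits none was highest there.

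Atrial markers were high in the same library. All 4 listed of 5 searched exceeded every other library at least 2-fold, with Sln at 1038 against at most 51.0, Myl7 at 7228 against at most 1104, Nppa at 2775 against at most 1008 and Myl4 at 1415 against at most 611. None of the 10 ventricular cardiomyocyte markers and none of the 9 epicardial markers was highest there, and its epicardial sum of 243.6 was the lowest of all. Of 6 smooth muscle and pericyte markers 3 were highest there, namely Cnn1 (281 against at most 146.7), Tagln (71.5 against at most 43.2) and Myh11 (6.81 against at most 6.01). Of 7 fibroblast markers Postn alone was (940.6 against at most 651.9). Dbh, an enzyme of noradrenaline synthesis, was the single listed one of 4 Schwann cell and neuron markers that was highest there, at 3.81 against at most 1.66. The part of atrial, nodal or smooth muscle cells in the Hcn4 and Tbx3 values was not tested.

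**Figure D5:**
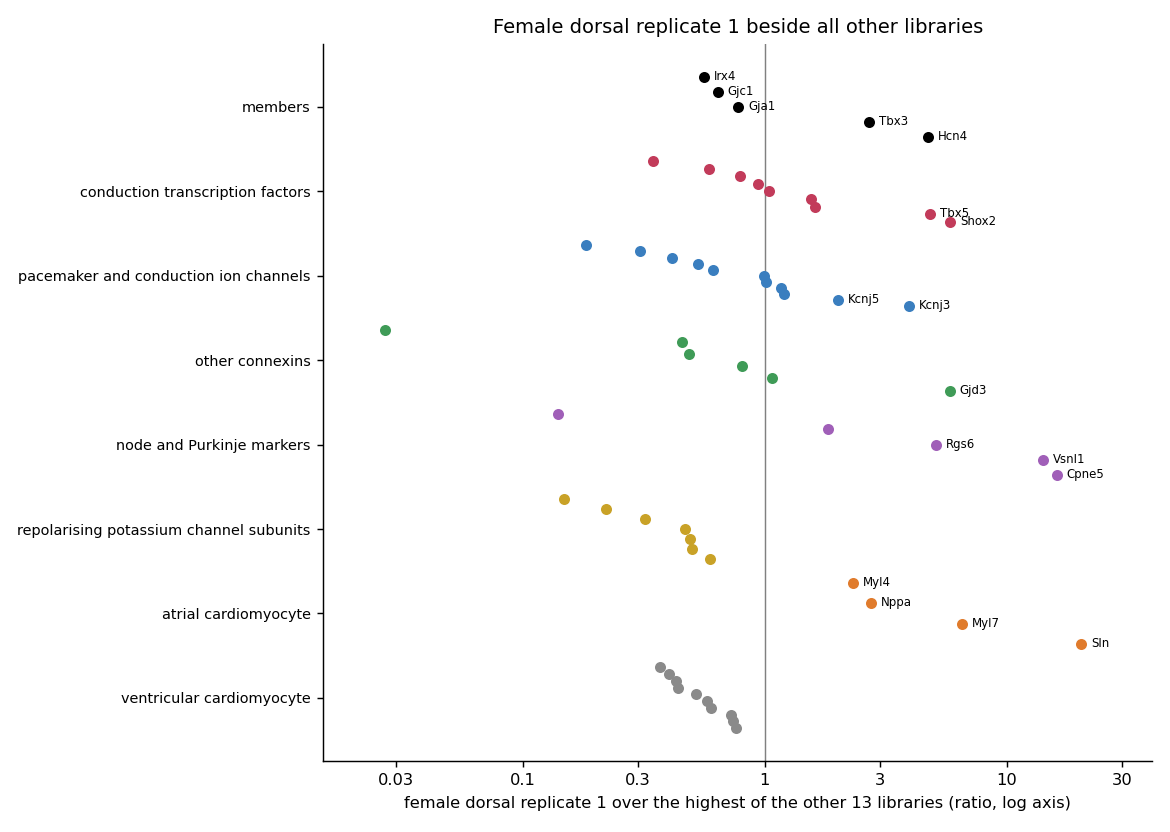
Ratio of the level in female dorsal replicate 1 to the highest of the other 13 libraries (horizontal logarithmic axis; grey line at 1), 1 point per listed gene, by list. Hcn4 (4.74) and Tbx3 (2.70) lie to the right with all 4 atrial markers, and Gja1, Gjc1 and Irx4 lie left of the line with all ventricular cardiomyocyte markers.

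Around the members, some genes of the conduction lists were called. Over all genes tested, 14.5% were called higher ventrally and 13.3% higher dorsally in females, and 9.80% and 9.06% in both sexes. Of 9 listed conduction transcription factors, Tbx18, which acts in the epicardium and the sinus node, was higher ventrally in females by 1.08 (SE 0.28, adjusted p = 0.0198) and in both sexes by 0.97 (adjusted p = 0.00954). Nkx2-5, a core factor of working muscle, read 35.6, 23.7 and 20.03 in female ventral and 91.3, 115.9 and 94.1 in female dorsal libraries, which do not overlap. Its female change of -1.92 (SE 0.21, adjusted p = 6.09e-04) was not matched in males, in which ventral libraries read 107.4, 102.3, 59.7 and 42.6 and dorsal ones 56.6, 68.3 and 96.6. The difference between the sexes in regional change was itself called (1.93, SE 0.43, adjusted p = 0.0252), and also without female dorsal replicate 1 (adjusted p = 0.0486).

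Among 11 listed ion channel genes, Kcnj5 was lower ventrally in females by 1.65 on the log2 scale (SE 0.37, adjusted p = 0.0103). Its change without female dorsal replicate 1 was -1.14 (adjusted p = 0.00904). Kcnj3 was called in the fit on both sexes (-1.35, adjusted p = 0.0278), also without that library (-1.004, adjusted p = 0.0437). Of 5 node and Purkinje markers, Smoc2, a matrix protein also made outside conduction tissue, was called higher ventrally in females (1.87, adjusted p = 0.00187) and in both (1.18, adjusted p = 0.0184). Of 7 repolarising channel subunits, Kcnd3, a pore subunit of the transient outward current, was called higher ventrally in females (1.73, adjusted p = 0.00600) and in both (1.56, adjusted p = 0.00782). It read 0.025 to 0.670 in female dorsal and 0.0205 to 1.3 in male dorsal libraries, with 0 reads in the lowest. The size of the Kcnd3 change thus depends on the pseudocount. No gene of these lists was called in males.

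Leaving out female dorsal replicate 1 changed several of these calls. Cacna1d, a pacemaker calcium channel, went from 1.15 (adjusted p = 0.158) to 1.91 (adjusted p = 0.00836), and Cacna1g, of the T-type current, from 0.60 (adjusted p = 0.482) to 1.35 (adjusted p = 0.0448). Their lowest values, in female dorsal libraries, were 0.681 and 0.973, at 12 and 19 reads. Ntm, a cell adhesion protein, went from 0.65 to 1.53 (adjusted p = 0.0194) and Id2, a partner of Tbx5 in the ventricular conduction system, from 0.50 to 1.20 (adjusted p = 0.0304). Of the 4 listed atrial markers, Myl7 moved with them, from -0.14 (adjusted p = 0.931) to 1.40 (adjusted p = 0.0104). Nppa went the other way, and limma called it lower ventrally both with that library and without it (-2.93, adjusted p = 0.0191 without it). Sln (1.61, adjusted p = 0.064) and Myl4 (-0.27, adjusted p = 0.781) were not called without that library. The part of atrial muscle in these values was not tested.

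The second question was whether the sexes differ. No member was called, where 10.9% of 15772 genes were, and none was called for a difference between the sexes in its regional change, where 2.73% were. Ventral and dorsal libraries of the same number entered the sex fit as independent, so its p-values mix spread between numbers with spread within them. With the number as a block no member was called between the sexes either. The log2 change of Hcn4, male minus female, was -1.089 (SE 0.45, unadjusted p = 0.0274 and adjusted p = 0.134 in limma). Its values in 3 of 3 female ventral libraries lay above every male one, and female dorsal replicates 2 and 3 lay within or below the male range. The share of all genes with such an order was not counted. On recovered reads edgeR gave a log2 change of -3.00 for Hcn4 and called it (adjusted p = 0.0472), with the 270 reads of female dorsal replicate 1 included. This was the single call among 23 alternatives, in which the change ran from -3.00 to -0.63. Without that library limma called no member between the sexes, and edgeR was not run. The change was -0.55 for Gjc1 (SE 0.20, adjusted p = 0.0949) and -0.43 for Irx4 (adjusted p = 0.204). It was 0.37 for Gja1 (adjusted p = 0.253) and -0.27 for Tbx3 (adjusted p = 0.7098). Of the conduction lists, Gata6, a factor of several heart lineages, was lower in males by 0.86 (adjusted p = 6.35e-04), Cacna2d1, an auxiliary calcium channel subunit, was lower by 0.63 (adjusted p = 0.0350) and Cacnb2, a calcium channel beta subunit, was higher by 1.58 (adjusted p = 0.00410). Markers of other cells also differed between the sexes. The epicardial genes Wt1, Upk3b, Msln and Krt19 (4 of 9), the fibroblast gene Tcf21 (1 of 7) and the macrophage gene Csf1r (1 of 5) were called higher in males, by 0.87 to 1.79, and epicardial sums were 243.6 to 2696 in female and 1525 to 5818 in male libraries. The part of these cells in the sex comparison was not tested.

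Genes whose levels followed each member were listed as a description over the 14 libraries, among 11336 genes with a mean of at least 5. These libraries share depth differences, sex and region, and the values are Pearson correlations of log2(value + 1). The genes that followed Gja1 most closely included Ogdh (0.965) and Gfm2 (0.952), which encode mitochondrial proteins. Gjc1 was followed by Tln2 (0.906), Ubxn8 (0.904) and Fhod3 (0.899), and Irx4 by Rufy1 (0.868), Ptpmt1 (0.843) and Rasgrp2 (0.837). Tbx3 was followed by Map1b (0.909) and Fry (0.875), and Hcn4 by Gm4737 (0.831), Slco3a1 (0.827) and Lhfpl2 (0.807). Without female dorsal replicate 1 the values were 0.804 for Map1b and 0.8 for Fry with Tbx3. With Hcn4 they were 0.855 for Gm4737, 0.745 for Slco3a1 and 0.595 for Lhfpl2. Among the members, Hcn4 and Tbx3 had a correlation of 0.605, which was 0.0272 over the 13 libraries other than female dorsal replicate 1. Gja1 and Gjc1 had one of -0.23, and Irx4 had none above 0.373 with any other member.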

How the data were processed

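Each of the 14 libraries is poly(A) RNA-seq of a pool of 2 hearts. According to the study's methods and processing notes, the authors trimmed adapters with cutadapt, quantified genes with RSEM (1.3.1 in the notes) on GRCm38 and normalised with limma after a filter on low CPM. They deposited a signal in normalised CPM for 15894 genes. Dividing by the step of each column gave whole reads for 100.0% of values (tolerance 0.02 reads, offset 0.5), which edgeR used. GENCODE M21 holds 15877 (99.9%) of the gene identifiers, and no column belonged to an unmapped sample.

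Members and gene lists were chosen with earlier results of these data known. Named genes were the members, list genes called in a regional fit or highest in female dorsal replicate 1, list genes called between the sexes or once that library was left out, the 3 genes most correlated with each member and the cell type markers; the groups after the regional fits and correlations were chosen after their values were seen. A few genes that this rule names are not reported here. Fits used limma 3.58.1 (R 4.3.3, eBayes with trend) on log2(value + 1) of genes that reached 1 in 3 or more of its libraries, with Benjamini-Hochberg adjustment over all genes tested and a threshold of 0.05. The fits were female, male, both sexes (sex as a term), the interaction and male against female (region as a term). A check on simulated data preceded them. Alternatives were a pseudocount of 0.1, no filter or a mean of at least 10, median-of-ratios or quantile scaling, edgeR 4.0.16 quasi-likelihood tests on recovered reads, removal of GC and length trends, a replicate block, each library left out and the unsettled library in either region. Same-numbered ventral and dorsal pools deviated together in all 6 pairs (correlations of 0.169 to 0.427), so the numbers were taken to pair the pools in the block fits. The main fits took all libraries as independent. Python 3.11.15, numpy 2.4.6, pandas 2.3.3 and matplotlib 3.10.9 did the rest.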

Additional observations from a re-analysis of the deposited data

Results flagged for a closer look

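Kcnj5 in male ventral replicate 7 stood at 16.4 normalised CPM, far below the other 3 male ventral libraries, which read 33.3, 32.04 and 34.1. The gap took up 0.882 of the range of the group, above Dixon's 95% limit for 4 libraries, in 1 of 14 genes tested this way. By chance about 1 in 20 such tests passes that limit. The test was run only on groups of at least 4 libraries, which left the male ventral group. Hcn4 and Tbx3 in female dorsal replicate 1 were therefore not tested this way. No member was set apart among the male ventral libraries, although Gjc1 and Gja1 were lowest in the same one, at 12.99 and 437.

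The regional change of Nkx2-5 differed between the sexes by 1.93 on the log2 scale (male minus female, SE 0.43, limma adjusted p = 0.0252), from -1.92 in females. No member met that test.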

How the results depend on the processing

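Of 498 recomputed member changes, 459 kept their direction and their side of the threshold, 27 changed sign, 6 lost a call and 6 gained one. Gja1 kept its call under every alternative run. All 6 lost calls were those of Gjc1 in females. The gained ones were Irx4 (3), Hcn4 and Tbx3 in females and Hcn4 between the sexes. The number of female members called was 2, against 1 with the replicate block, 4 with the block and GC and length trends removed, and 1 to 3 with each library left out. Between the sexes it was 1 in edgeR. The block changed no other member call.

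Counts over all genes also moved. With the replicate block 76 male genes were called (38 with trends removed). For the difference between the sexes in regional change, 804 were called (787 with trends removed). Leaving out single libraries gave 2158 to 3845 female, 0 to 12 male and 1429 to 3646 both-sexes calls. It gave 260 to 447 calls for the difference between the sexes in regional change.

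Uncalled changes near 0 turned sign. Female Hcn4 was -1.02 in edgeR, -0.10 with trends removed, with or without the block, and -0.41 to 1.42 over single libraries left out. In both sexes it was -0.14 (quantile), -0.70 (edgeR), -0.19 (trends removed), -0.16 (with block) and -0.23 to 0.52 (libraries left out). Its difference between the sexes in regional change was 0.55 in edgeR and -1.52 to 0.30 over libraries left out. Male Tbx3 was 0.13 with the block, 0.02 with trends removed too, and -0.37 to 0.14 over libraries left out. Its sex difference in regional change ran from -0.04 to 1.02 over libraries left out and reached 1.08 with the block and trends removed, and its male against female change ran from -0.51 to 0.04. Male Gjc1 was 0.02 (edgeR), 0.24 (block, with or without trends), 0.04 (unsettled library as dorsal) and -0.24 to 0.24 (libraries left out). Male Irx4 was -0.41 with trends removed and -0.37 to 0.00 over libraries left out. The causes were not tested. Hcn4 could not be fitted for a mean of at least 10, nor could Tbx3, and Hcn4 entered the male fit only without the filter. At 1 to 16 reads, Hcn4 in most libraries was near the limit of detection.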
